A study of Homo sapiens with 6 samples.

Results

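The collagen genes are those whose symbol, looked up from the Ensembl identifier, is COL, a type number, A and a chain number. There were 41 of them among the 16574 genes with values: 8 fibrillar (types I, III, V and XI), 7 of basement membranes (types IV and XVIII) and 26 others. The 6 libraries were made from Nthy-ori 3-1, a human cell line from normal thyroid follicular epithelium that was immortalised with SV40 large T antigen, so all libraries share that oncogene and stem from 1 line whose genotype is labelled WT. In the BDE209 group (3 libraries) cells were grown for 27 days with 2.5 µM decabromodiphenyl ether, a fully brominated flame retardant, and in the DMSO group (3 libraries) they had the solvent dimethyl sulfoxide alone in equal volume and for as long. Nothing in the labels says that the replicates of a group came from separate cultures. The spread behind each p-value is thus that of these libraries and may be technical.

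Collagens are extracellular proteins built of 3 chains wound into a rod-like helix, in which glycine recurs at a fixed step along each chain. Fibrillar collagens pack into the cables that give connective tissue its tensile strength, with type I the most abundant, type III its partner in stretchy tissues and type V the core that sets fibril diameter. Type IV forms the sheet of the basement membrane on which epithelial cells, thyroid follicles included, rest. Other types bead, link, anchor or span membranes. In most tissues fibroblasts and other mesenchymal cells make the bulk of the fibrillar chains, and epithelial cells contribute mainly to the basement membrane.

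Values are FPKM, that is, sequenced fragments corrected for the length of the transcript and the size of the library, so levels can be compared between genes. Depth in fragments is not known. Summed FPKM were 586204, 829739 and 567810 in BDE209 replicates 1, 2 and 3 and 596725, 819086 and 580098 in DMSO replicates 1, 2 and 3. Both replicate 2 libraries stood apart from the rest. Ribosomal protein genes took 31.8% of the sum in BDE209 replicate 2 and 31.3% in DMSO replicate 2, against 18.8% to 21.3% in the other 4 libraries. Results are therefore given over all 6 libraries and over replicates 1 and 3 alone. Of 14 mesenchymal and fibroblast markers with values, 14 had at least 1 FPKM in 3 or more libraries, while 2 of 12 thyroid follicular markers did. Thyroglobulin (TG) read 0.02 to 0.12 FPKM and the thyroid transcription factor PAX8 0.35 to 0.49. Of the follicular list, HHEX, at 4.83 to 7.62 FPKM, and FOXE1, at 0.84 to 1.48, passed the filter. Of 10 epithelial markers 4 passed it, EPCAM at 1.06 to 1.21 FPKM, KRT8 at 5.7 to 9.0, KRT18 at 36.2 to 55.9 and KRT7 at 75.8 to 113. The 6 under the filter were the cadherin CDH1, at 0.00 to 0.25 FPKM, KRT19, CLDN1, OCLN, DSP and CLDN4, the last at 0.14 to 1.03.

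Collagen messages were abundant in both groups. Together the 41 genes took 1.29%, 0.427% and 1.46% of the summed FPKM in BDE209 replicates 1, 2 and 3, against 1.34%, 0.472% and 1.44% in DMSO replicates 1, 2 and 3. The shares of the groups overlapped, and in both groups replicate 2 was lowest. Types I and VI alone made up 90.1% to 91.7% of the collagen sum in BDE209 libraries and 90.5% to 91.8% in DMSO libraries. A filter of 1 FPKM in 3 or more libraries left 23 collagen genes for testing (6 fibrillar, 4 basement membrane, 13 other), out of 11223 genes tested in all.

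**Figure D1:**
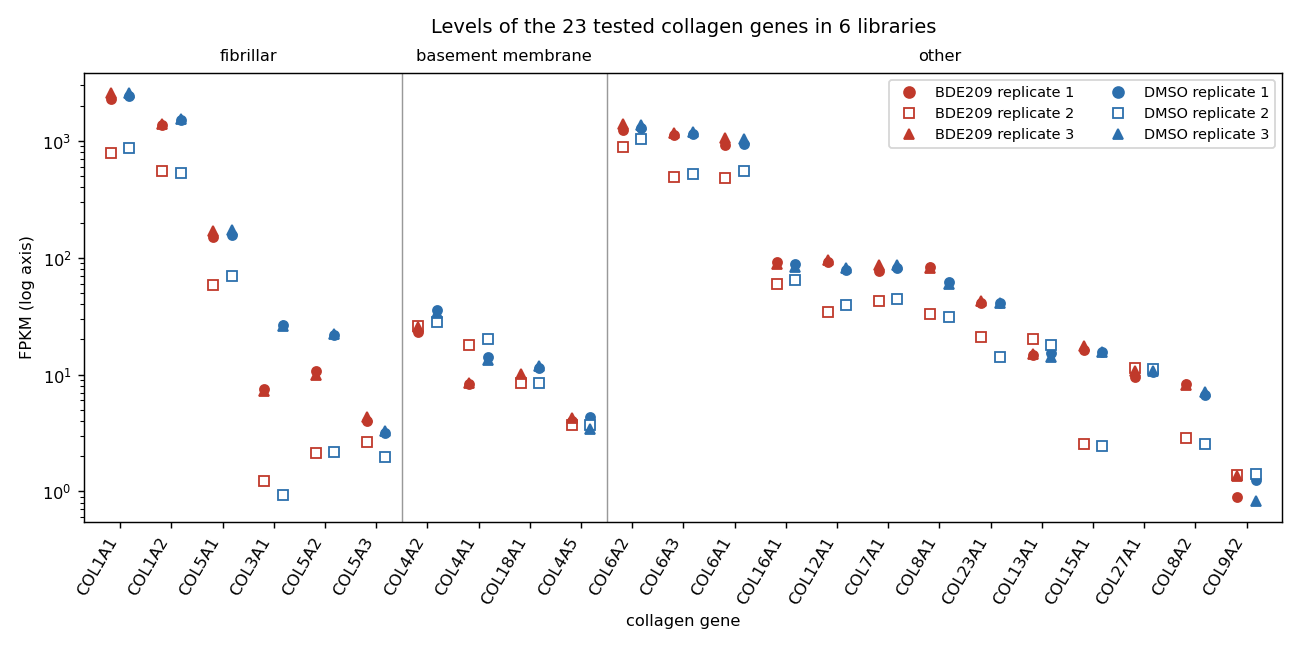
FPKM on a log axis of the 23 tested collagen genes, grouped by class and ordered by mean level. Each point is 1 library, red for BDE209 and blue for DMSO, with open squares for replicate 2. Types I and VI lie highest, replicate 2 lies low for most genes, and COL3A1 and COL5A2 separate BDE209 from DMSO in replicates 1 and 3.

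Most collagens read near their DMSO levels in the BDE209 libraries, and a few were lower, mainly in replicates 1 and 3. Over all 6 libraries limma called 0 of the 23 genes, as it called 0.00% of all genes tested; 1 collagen, COL4A2, had an unadjusted p under 0.05, as did 1.57% of all genes. A block for the replicate number again gave 0, with 6 collagens and 16.5% of all genes under that unadjusted level. In replicates 1 and 3 alone, where 2.33% of all genes were called lower and 4.47% higher, 4 collagens fell (COL3A1, COL5A2, COL4A1 and COL4A2) and 1 rose (COL8A1). That fit with the block, which leaves 1 residual degree of freedom a gene, called 10 collagens, against a background of 28.0%. It added COL1A2 and COL18A1, lower, and COL5A3, COL8A2 and COL12A1, higher. Differences are BDE209 minus DMSO in log2(FPKM + 1), a scale that understates changes of low genes. The median over the 23 genes was -0.07, -0.02 and 0.02 in replicates 1, 2 and 3, beside 0.01, 0.02 and -0.00 for all genes tested.

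**Figure D2:**
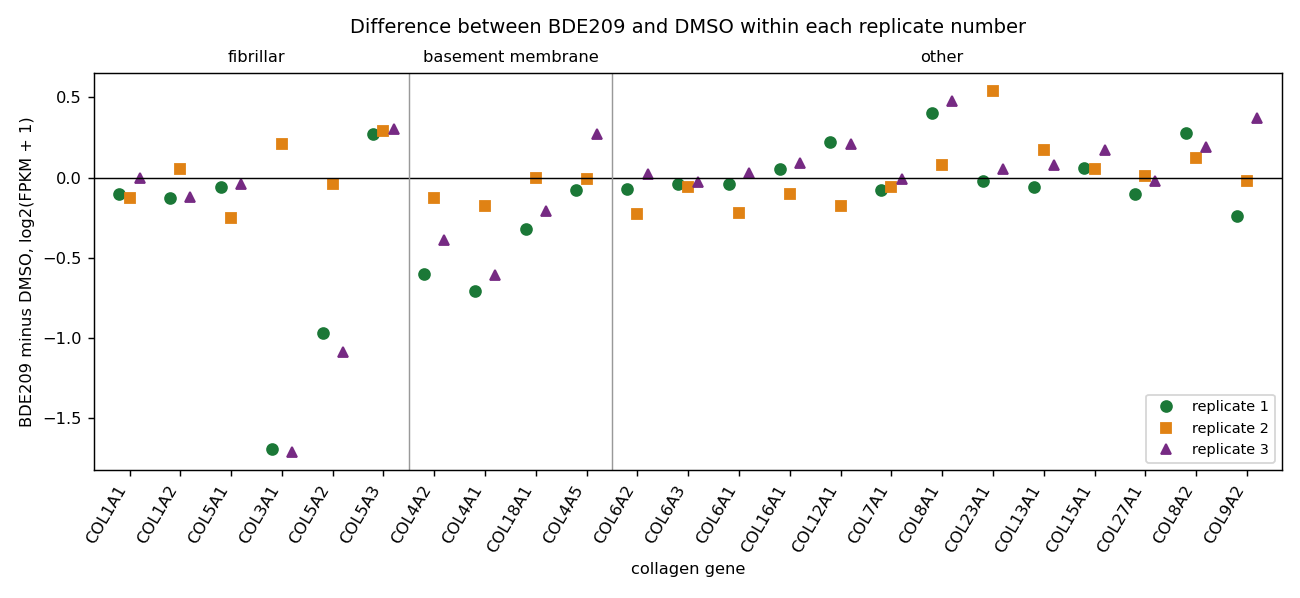
Difference of log2(FPKM + 1) between the BDE209 and the DMSO library of the same replicate number, for the 23 tested collagen genes by class. Circles, squares and triangles are replicates 1, 2 and 3. COL3A1, COL5A2, COL4A1 and COL4A2 lie below 0 in replicates 1 and 3, and COL3A1 lies above 0 in replicate 2.

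The most abundant fibrillar chain, COL1A1, showed no called difference. COL1A1, the alpha-1 chain of type I (ENSG00000108821), read 2270, 787 and 2560 FPKM in BDE209 replicates 1, 2 and 3, against 2427, 863 and 2558 in DMSO replicates 1, 2 and 3. Its difference was -0.08 over 6 libraries, with a 95% interval of -1.59 to 1.44, and -0.05 in replicates 1 and 3, with an interval of -0.26 to 0.16. The groups overlapped. The narrower interval rests on the spread of replicates 1 and 3, which may be technical, so it bounds a change in these libraries alone. COL1A2, the alpha-2 chain, read 1379, 548 and 1402 FPKM in BDE209 and 1509, 529 and 1527 in DMSO. Its difference in replicates 1 and 3 was -0.13 (limma adjusted p = 0.361), which was called with the block (0.00557; 95% interval -0.19 to -0.06). Type I collagen holds more alpha-1 than alpha-2 chains, and the ratio of COL1A1 to COL1A2 levels was 1.65, 1.44 and 1.83 in BDE209 against 1.61, 1.63 and 1.67 in DMSO (two-sided exact permutation p = 0.900, where 3 against 3 libraries cannot go under 0.1). COL1A1 stood above COL1A2 in every library.

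Of the collagens, type III fell furthest in replicates 1 and 3. COL3A1 (ENSG00000168542), the sole chain of type III, read 7.53, 1.23 and 7.20 FPKM in BDE209 replicates 1, 2 and 3, against 26.5, 0.93 and 25.8 in DMSO replicates 1, 2 and 3. BDE209 libraries were thus at 0.284 and 0.279 of the DMSO level in replicates 1 and 3, and at 1.32 of it in replicate 2, where both libraries were low. In replicates 1 and 3 the difference was -1.70 (SE 0.0759; limma adjusted p = 0.000144), which ranked 3 from the lowest among 11223 genes. Over 6 libraries it was -1.06 with an adjusted p of 1.00. COL1A1 stood at 302, 640 and 356 times the level of COL3A1 in BDE209 replicates 1, 2 and 3, against 91.5, 928 and 99.0 times in DMSO replicates 1, 2 and 3.

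COL5A2, the alpha-2 chain of type V (ENSG00000204262), fell as well in replicates 1 and 3. The gene is the next protein-coding neighbour of COL3A1 on chromosome 2. Its level was 10.6, 2.11 and 9.85 FPKM in BDE209, against 21.8, 2.19 and 22.1 in DMSO. The BDE209 level was 0.487 and 0.446 of the DMSO level in replicates 1 and 3 and 0.963 in replicate 2. The difference in replicates 1 and 3 was -1.03 (SE 0.0782; limma adjusted p = 0.000942). A drop of over 1 log2 unit in replicates 1 and 3 was seen in 0.116% of all genes tested, COL3A1 and COL5A2 among them.

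The other chains of type V behaved differently. COL5A1, the alpha-1 chain and much the most abundant, read 151, 58.2 and 170 FPKM in BDE209 and 158, 69.6 and 174 in DMSO, lower in all 3 pairs but by no called amount. COL5A3, the alpha-3 chain, read 4.03, 2.63 and 4.29 FPKM in BDE209 and 3.18, 1.97 and 3.29 in DMSO. Each pair had the higher value in BDE209, at 1.27, 1.34 and 1.30 times the DMSO level, with a difference of 0.29 over 6 libraries (limma adjusted p = 1.00, or 0.222 with the block) and 0.28 in replicates 1 and 3 (0.127, or 0.0256 with the block). Of the 23 tested collagens, 4 were higher in all 3 pairs, where 21.9% of all genes were. Lower in all 3 pairs were 6 of the 23, against 17.3% of all genes. The ratio of COL5A1 to COL5A2 was 14.2, 27.6 and 17.2 in BDE209 against 7.24, 31.8 and 7.89 in DMSO (two-sided exact permutation p = 0.5, or 0.900 adjusted over the 4 chain ratios tested). BDE209 was above DMSO in replicates 1 and 3 and below it in replicate 2. The chains of type XI, which cartilage uses, were under the filter, COL11A1 at 0.00 to 0.01 FPKM and COL11A2 at 0.17 to 0.48.

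Fibroblast markers moved in both directions in the same libraries. Of 14 tested, limma called 2 lower and 2 higher in replicates 1 and 3, where 2.33% of all genes fell and 4.47% rose. POSTN, the matrix protein periostin, read 37.5, 20.5 and 33.0 FPKM in BDE209, against 121, 21.4 and 112 in DMSO, a difference in replicates 1 and 3 of -1.70 (limma adjusted p = 0.00022). PDGFRB, a growth factor receptor, differed there by -0.42 (limma adjusted p = 0.0332). LUM and DCN, proteoglycans that bind collagen fibrils, differed by 1.46 and 1.10 (limma adjusted p = 0.000327 and 0.000993). The list's summed level was 8225 to 8972 FPKM in BDE209 and 8946 to 10857 in DMSO, and none of its markers was at 0. Their part in the differences of COL3A1 and COL5A2 was not tested.

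Of the basement membrane collagens, the chains of the common type IV network fell in replicates 1 and 3. COL4A1 (ENSG00000187498) and COL4A2 (ENSG00000134871) are joined in 1 helix and lie head to head on chromosome 13, so that transcription runs outward from a shared stretch of 126 bases between their starts, in RefSeq on GRCh38.p14. That stretch is shown because both genes fell in replicates 1 and 3; in replicate 2 their levels parted, as given below. It is chr13:110307158-110307283, read on the plus strand toward COL4A2, with a CCAAT box and a GC box (GGGCGG) in capitals.
COL4A1-COL4A2 interval: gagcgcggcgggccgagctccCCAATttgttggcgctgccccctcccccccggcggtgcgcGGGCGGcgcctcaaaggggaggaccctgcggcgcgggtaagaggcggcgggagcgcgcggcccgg
Both strands were searched, and the 2 motifs do not overlap. CCAAT was found once and GGGCGG once, while TATAAA, the TATA box, was not found. In windows of 126 bases before the start of 35116 RefSeq transcription starts, CCAAT was present in 21.1%, GGGCGG in 34.6% and TATAAA in 5.87%. G and C made up 80.2% of the interval.

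COL4A1 read 8.29, 17.8 and 8.47 FPKM in BDE209 replicates 1, 2 and 3, against 14.2, 20.3 and 13.4 in DMSO replicates 1, 2 and 3. It was lower in all 3 pairs, by ratios of 0.585, 0.878 and 0.632, although the groups overlapped because replicate 2 was high in both. The difference in replicates 1 and 3 was -0.66 (SE 0.0783; limma adjusted p = 0.00486). COL4A2 read 23.2, 25.9 and 25.4 FPKM in BDE209, against 35.7, 28.4 and 33.5 in DMSO. Here all BDE209 values lay below all DMSO values, which held for 2.00% of all genes tested and for no other collagen; all BDE209 values lay above all DMSO values in 0 of 23 collagens and 3.22% of all genes. The difference was -0.37 over 6 libraries (95% interval -0.69 to -0.05; adjusted p = 1.00) and -0.50 in replicates 1 and 3 (SE 0.0824; limma adjusted p = 0.0168). The ratio of COL4A1 to COL4A2 was 0.358, 0.686 and 0.333 in BDE209 against 0.397, 0.714 and 0.400 in DMSO, lower in all 3 pairs (two-sided exact permutation p = 0.5).

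COL18A1, whose cleaved tail is the angiogenesis inhibitor endostatin, read 8.99, 8.50 and 10.1 FPKM in BDE209 and 11.4, 8.50 and 11.9 in DMSO. Its difference in replicates 1 and 3 was -0.27 (SE 0.0876; limma adjusted p = 0.134, or 0.00991 with the block), and replicate 2 read 8.50 in both groups. COL4A5, a chain of the specialised networks of kidney and other epithelia, read 4.04, 3.70 and 4.28 FPKM in BDE209 and 4.31, 3.73 and 3.39 in DMSO. Its partners were under the filter, COL4A3 at 0.00 to 0.05 FPKM, COL4A4 at 0.05 to 0.38 and COL4A6 at 0.09 to 0.28. These pairs too lie head to head, with 418 bases between the starts of COL4A4 and COL4A3 and 379 to 1415 between those of COL4A6 and COL4A5.

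By class, the median difference of the tested basement membrane genes was -0.46, -0.07 and -0.30 in replicates 1, 2 and 3. For the fibrillar genes it was -0.11, 0.01 and -0.08, and for the others -0.04, -0.02 and 0.08. The fibrillar median hides a split between COL3A1 and COL5A2, which fell in replicates 1 and 3, and 4 chains not called there without the block. With the block COL1A2 was called lower and COL5A3 higher. With 4 to 13 genes a class and no test between classes, these medians are descriptive.

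Type VI collagen, which forms beaded filaments around cells, had no called chain. COL6A2 read 1232, 884 and 1390 FPKM in BDE209 and 1296, 1035 and 1367 in DMSO. COL6A1 read 915, 478 and 1053 FPKM in BDE209 and 940, 557 and 1035 in DMSO. COL6A3, the long chain, read 1115, 495 and 1177 FPKM in BDE209 and 1146, 518 and 1201 in DMSO. In replicates 1 and 3 the differences were -0.02, -0.01 and -0.03 with 95% intervals of -0.23 to 0.18, -0.23 to 0.22 and -0.22 to 0.15. The ratio of COL6A1 to COL6A2 was 0.743, 0.541 and 0.758 in BDE209 against 0.725, 0.538 and 0.757 in DMSO (two-sided exact permutation p = 0.700).

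Type VIII is a short-chain network collagen of vessel walls and the cornea, and 1 of its chains rose in replicates 1 and 3. COL8A1 (ENSG00000144810) read 82.8, 32.8 and 82.5 FPKM in BDE209, against 62.3, 31.0 and 59.0 in DMSO, with ratios of 1.33, 1.06 and 1.40. It rose by 0.44 in replicates 1 and 3 (SE 0.0714; limma adjusted p = 0.0155), and over 6 libraries the groups overlapped. COL8A2, its partner, read 8.33, 2.87 and 8.21 FPKM in BDE209 and 6.69, 2.55 and 7.06 in DMSO, again higher in all 3 pairs, with no call in replicates 1 and 3 (limma adjusted p = 0.148) unless the block was added (0.0300). COL15A1, a relative of COL18A1, was the remaining collagen higher in all 3 pairs after COL5A3, at 16.2, 2.56 and 17.7 FPKM in BDE209 and 15.5, 2.43 and 15.6 in DMSO, for 4 of 23 in all.

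Collagens that decorate fibrils or anchor them to epithelia showed small differences. COL12A1, which bridges fibrils, read 91.7, 34.6 and 95.0 FPKM in BDE209 and 78.5, 39.4 and 82.0 in DMSO, higher in replicates 1 and 3 and lower in replicate 2. COL16A1, of the same fibril-associated family, read 92.5, 59.8 and 89.1 FPKM in BDE209 and 89.2, 64.1 and 83.6 in DMSO. COL7A1, the anchoring fibril of skin, read 77.5, 42.7 and 86.0 FPKM in BDE209 and 81.7, 44.7 and 86.5 in DMSO. Not one of these 3 was called in replicates 1 and 3 without the block, with which COL12A1 was (0.22; limma adjusted p = 0.00181, against 0.134).

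Among the transmembrane collagens, COL13A1 read 14.6, 20.1 and 15.1 FPKM in BDE209 and 15.3, 17.8 and 14.3 in DMSO. COL23A1 read 40.6, 21.1 and 42.2 FPKM in BDE209 and 41.3, 14.2 and 40.6 in DMSO, so its difference sat in replicate 2, at a ratio of 1.48. COL27A1, a fibril-forming collagen outside the classes above, read 9.61, 11.3 and 10.6 FPKM in BDE209 and 10.4, 11.2 and 10.8 in DMSO. COL9A2, a cartilage collagen, lay at the filter with 0.82 to 1.40 FPKM.

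The 18 genes under the filter peaked at 1.11 FPKM and 16 of them never reached 0.5. COL10A1, a growth-plate collagen, read 0.61 to 1.11 FPKM and COL14A1, a fibril-associated one, 0.02 to 0.76, with both replicate 2 libraries of COL14A1 lowest. COL17A1, the hemidesmosome collagen of epithelia, read 0.46, 0.29 and 0.32 FPKM in BDE209 and 0.23, 0.19 and 0.28 in DMSO. It was the 1 gene of these 18 whose BDE209 values all lay above its DMSO values, the nearest being 0.29 and 0.28. How often this held among all genes under the filter was not counted. COL24A1 read 0.03 to 0.26 FPKM, COL21A1 0.00 to 0.14 and COL9A3 0.00 to 0.15. The rest, COL2A1, COL6A5, COL6A6, COL19A1, COL25A1, COL26A1 and COL28A1, stayed at 0.00 to 0.09 FPKM. The 18 genes were not tested because they did not reach 1 FPKM in 3 or more libraries. Values are given to 2 decimals, and 9 of the 18 never reached 0.1.

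Whether the BDE209 effect differed in replicate 2 was tested for each gene in 1 limma fit. Replicate 2 has 1 library per group, and the spread was taken from replicates 1 and 3. The fit leaves 1 residual degree of freedom a gene. It also pairs libraries by replicate number, and the pairing of 1 with 1 and 3 with 3 was not tested. The effect differed in 8 of 23 collagens, against 10.3% of all genes tested. The comparison shares its libraries with that of replicates 1 and 3. For COL3A1 the effect was higher in replicate 2 by 1.91 (adjusted p = 2.09e-06) and for COL5A2 by 0.99 (0.000334). COL23A1, at 0.52, and COL4A1, at 0.48, were also higher there. It was lower in replicate 2 for COL12A1 by 0.40, COL8A1 by 0.36, COL6A1 by 0.21 and COL6A2 by 0.20, the last at an adjusted p just under the threshold. For COL4A2 the test was not passed (adjusted p = 0.0571). Without a filter on low values the fit called 0 collagens, and without limma's trend and robust options it called COL3A1 and COL5A2 alone.

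In the median, the collagens differed more between replicate 2 and the other libraries than between BDE209 and DMSO. Its 2 libraries had a median shift of -0.93 from the other 4 on the log2(FPKM + 1) scale over the 23 collagens, against -0.10 over all genes tested. Both replicate 2 libraries lay below all others in 17 of 23 collagens, where 42.6% of all genes did, and above all others in 4, where 29.8% of all genes did. A shift under -1 was found in 11 of 23, against 3.28% of all genes. COL3A1 had the lowest shift of all 11223 genes, at -2.86, COL5A2 ranked 3 at -2.35 and COL15A1 ranked 5 at -2.30; 0.0802% of all genes lay under -2.

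The classes differed in this shift. All 6 tested fibrillar genes lay below in replicate 2, with a median of -1.50 and a range of -2.86 to -0.51. COL1A1, at -1.57, and COL1A2, at -1.43, moved nearly alike. The 4 basement membrane genes had a median of -0.09. COL4A1 went the other way, with a shift of 0.76 and both replicate 2 libraries above all others, while its partner COL4A2 stood at -0.09. The 13 others had a median of -0.93, and within them COL13A1, at 0.33, COL9A2, at 0.21, and COL27A1, at 0.11, stood higher in replicate 2. The low level of a bulk library cannot tell fewer cells that make collagen from less collagen RNA per cell.

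Collagen transcripts are long, and the shift of replicate 2 went with length. Of the 23 collagens, 17 were in the longest of 4 equal groups of genes by transcript length, where the shift of all genes had a median of -0.39. The collagens of that group had one of -1.13. In the group before it, all genes had a median of -0.20 and the 2 collagens, COL6A1 and COL8A2, one of -1.07. The 4 collagens of the group next to the shortest had -0.13, against -0.02. With the length trend removed from each library the collagen median was -0.70. Within the longest group, the 4 basement membrane genes and COL27A1 stood above -0.39, from -0.28 for COL18A1 to 0.76 for COL4A1. The other collagens of that group stood below it. The part of length, of RNA quality or of culture in the shift was not tested. Mesenchymal markers moved less, with a median shift of -0.32 over 14 genes. Both replicate 2 libraries lay below all others in 7 of 14, where 42.6% of all genes did. These markers are shorter than the collagens, with 3 in the longest group and 4 in the shortest, and were not compared with collagens of like length. Their summed level was 8972, 8830 and 8225 FPKM in BDE209 replicates 1, 2 and 3 and 10857, 8946 and 9862 in DMSO replicates 1, 2 and 3, of which VIM, vimentin, made up 81.4% to 83.8% in BDE209 and 82.5% to 86.5% in DMSO. Without VIM the sum was 1452, 1646 and 1408 FPKM in BDE209 and 1650, 1209 and 1722 in DMSO. Replicate 2 was thus highest in BDE209 and lowest in DMSO, an order that follows S100A4, the largest of the markers left. S100A4 read 627, 1033 and 587 FPKM in BDE209 and 714, 600 and 782 in DMSO. The next largest, THY1 and PDGFRA, were lowest in replicate 2 in both groups, while FAP was highest there in both. Single markers ranged from -1.57 for POSTN and -1.48 for PDGFRB to 0.34 for FAP in their shift.

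**Figure D3:**
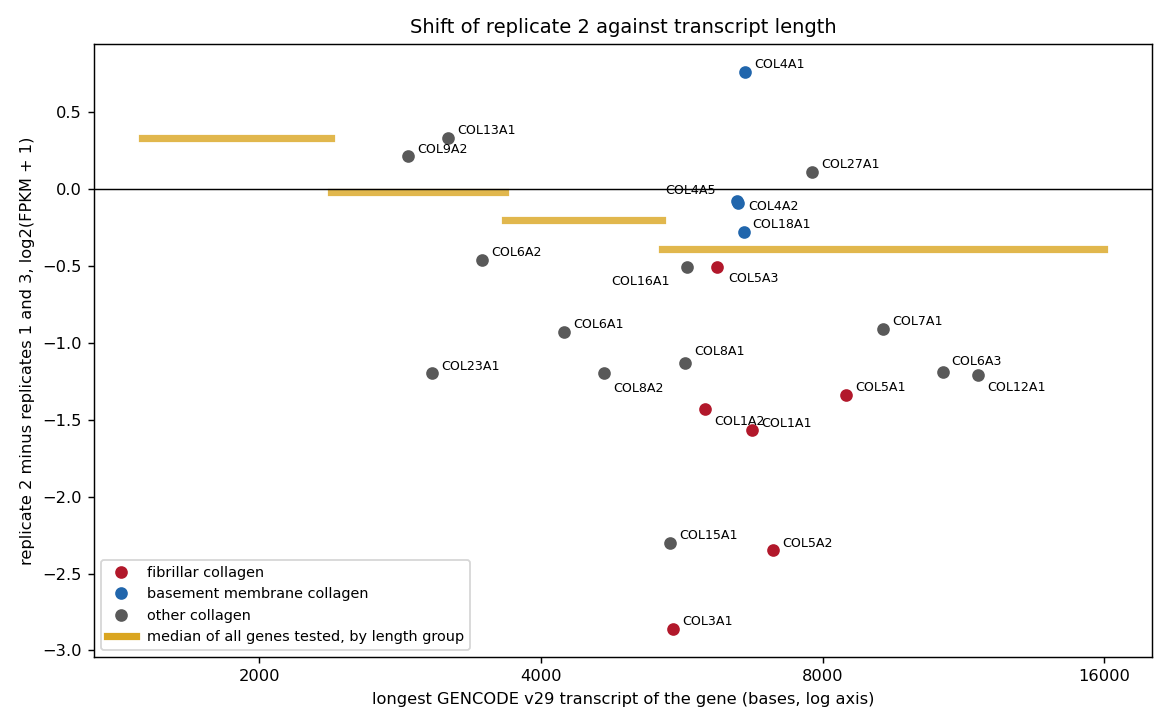
Mean log2(FPKM + 1) of the 2 replicate 2 libraries minus that of the other 4, against the longest GENCODE v29 transcript of the gene on a log axis. Points are the 23 tested collagens by class and bars the medians of all genes tested in 4 groups of equal size by length, drawn between 1500 and 16000 bases. Most collagens lie below the bar of their length, COL3A1 lowest at -2.86. The basement membrane genes are among those above it, COL4A1 highest at 0.76.

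The enzymes that prepare collagen chains and the proteins that bind or cleave them were described from 4 lists. Drawn up by the known role of each gene, with earlier results of these data at hand, they hold 23 genes of synthesis and folding in the endoplasmic reticulum, 16 of cross-linking and processing outside the cell, 14 receptors and 13 of degradation. Over 6 libraries limma called 0 of the 22, 14, 9 and 10 tested members, as it did of all genes. At an unadjusted p under 0.05 there were 1, 1, 0 and 0, where 1.57% of all genes were. In replicates 1 and 3 limma called 4, 3, 2 and 1, against 6.81% of all genes, and with the block 8, 7, 4 and 7, against 28.0%.

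Among the 22 synthesis genes, 4 rose in replicates 1 and 3 alone and 0 fell, where 4.47% of all genes rose. P4HA1 and P4HA2 are catalytic subunits of the prolyl hydroxylase that makes the helix stable at body temperature. P4HA2 read 32.4, 21.5 and 32.4 FPKM in BDE209 and 18.9, 19.1 and 18.7 in DMSO, a difference of 0.76 in replicates 1 and 3 (SE 0.0718; limma adjusted p = 0.00198). All its BDE209 values lay above its DMSO values, which held for 2 of the 22, P3H2 being the other, and for 3.22% of all genes tested. P4HA1 read 140, 69.7 and 121 FPKM in BDE209 and 83.7, 70.5 and 80.2 in DMSO, a difference of 0.66 (adjusted p = 0.00805). The lysyl hydroxylases modify residues that later carry cross-links. PLOD2 read 118, 77.8 and 108 FPKM in BDE209 and 67.0, 81.3 and 66.2 in DMSO, a difference of 0.75 (adjusted p = 0.00259). PLOD1 read 201, 119 and 212 FPKM in BDE209 and 163, 128 and 165 in DMSO, a difference of 0.33 (adjusted p = 0.0399). In replicate 2 their differences were -0.02 (P4HA1), 0.16 (P4HA2), -0.10 (PLOD1) and -0.06 (PLOD2), and the effect differed there for all 4 in the limma fit above, the largest adjusted p being 0.00246. The median of the whole synthesis list was 0.00 in replicates 1 and 3, the same as for all genes.

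Of the 14 genes that act outside the cell, LOXL2 and TGM2 rose and PCOLCE2 fell in replicates 1 and 3, where 4.47% of all genes rose and 2.33% fell. LOXL2, a lysyl oxidase that acts on type IV collagen, read 439, 182 and 477 FPKM in BDE209 and 318, 201 and 328 in DMSO, a difference of 0.50 (SE 0.0782; limma adjusted p = 0.0135). TGM2, a transglutaminase that joins matrix proteins, read 11.04, 7.48 and 12.01 FPKM in BDE209 and 6.05, 6.44 and 7.34 in DMSO, a difference of 0.71 (adjusted p = 0.0112). PCOLCE2, which speeds removal of the procollagen tail, read 15.8, 19.4 and 12.3 FPKM in BDE209 and 29.3, 17.3 and 26.6 in DMSO, a difference of -0.95 (adjusted p = 0.00664).

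Among receptors 2 of 9 rose in replicates 1 and 3 and 0 fell, beside the same shares of 4.47% and 2.33%. ITGA1, the integrin alpha-1 chain with a preference for type IV collagen, read 4.28, 1.83 and 3.91 FPKM in BDE209 and 2.31, 1.55 and 2.22 in DMSO, a difference of 0.64 (adjusted p = 0.0121). DDR1, a receptor kinase for collagen, read 8.16, 4.80 and 8.25 FPKM in BDE209 and 5.32, 5.28 and 4.76 in DMSO, a difference of 0.61 (adjusted p = 0.0104). Of the 10 degradation genes 1 was called, a share near the background of 6.81%. The list's members with the smallest p over 6 libraries were the membrane-bound proteases MMP15, which read 5.51, 2.58 and 6.60 FPKM in BDE209 and 3.14, 2.74 and 3.19 in DMSO, and MMP16, which read 5.52, 3.86 and 5.41 FPKM in BDE209 and 7.10, 3.59 and 7.34 in DMSO. MMP15 was the 1 called in replicates 1 and 3, at 0.76 (limma adjusted p = 0.00881). MMP16 differed there by -0.35 (limma adjusted p = 0.0552, or 0.00389 with the block).

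**Figure D4:**
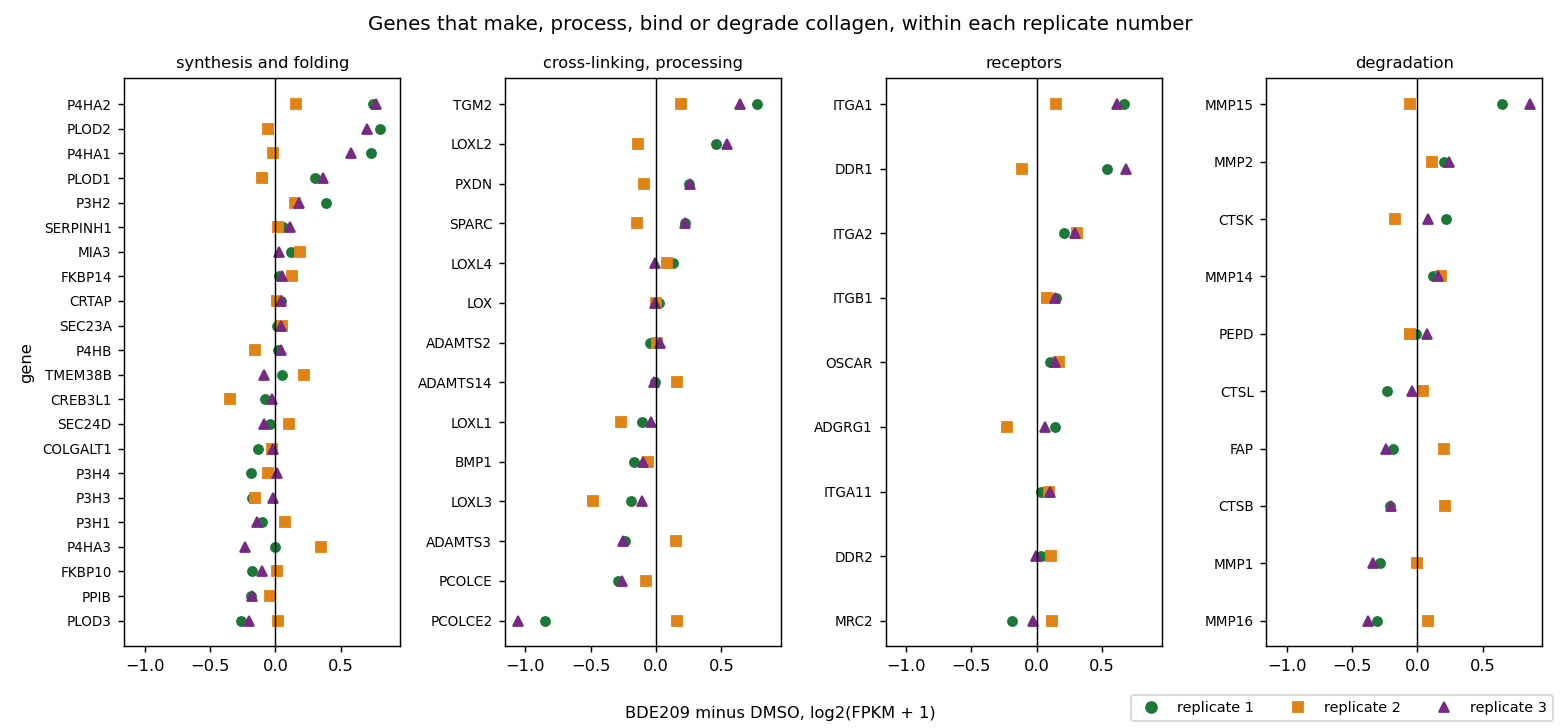
Difference of log2(FPKM + 1) between BDE209 and DMSO of the same replicate number for the tested members of 4 lists, 1 panel a list, ordered by the difference in replicates 1 and 3. Circles, squares and triangles are replicates 1, 2 and 3. P4HA2, PLOD2 and P4HA1 lead the synthesis panel at 0.66 to 0.76 and PCOLCE2 stands lowest in the processing panel at -0.95, with replicate 2 near 0 for most.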

How the data were processed

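Bulk RNA of 6 libraries was sequenced, 3 per group. The deposited files give FPKM per gene to 2 decimals with human Ensembl identifiers, per the file headers. The submitters' processing notes name Bowtie 0.12.2, Bowtie2, RSEM and the mouse builds mm8 and mm10; the sources used here give no human build, strand use or treatment of shared reads, so overlapping or near-identical genes are uncertain. The 40 rows of 20 repeated identifiers were left out of 16614, and 16535 of the remaining 16574 genes had a symbol. Limma 3.58.1 (R 4.3.3, trend and robust options) was fitted to log2(FPKM + 1), a scale that understates changes of low genes, over the 11223 genes with at least 1 FPKM in 3 or more libraries, treatment alone, with Benjamini-Hochberg adjustment over all of them (called under 0.05, two-sided). The fit was tested on simulated data with independent noise and no replicate 2 shift, so that test does not cover the spread seen here. Transcript lengths are from GENCODE v29 (GRCh38), longest transcript, found for 99.8% of genes tested. The promoter table (RefSeq, GRCh38.p14) held 31 of the 41 collagens.

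Replicate numbers, from the sample titles, were used to pair the samples. Deviations from group means correlated at 0.738, 0.875 and 0.824 for numbers 1, 2 and 3 between the groups. Deviations cancel out within a group, so the shift shared by both replicate 2 libraries also raises the values for numbers 1 and 3. Unlike numbers were not compared, so whether 1 pairs with 1 and 3 with 3 was not tested. The members, gene lists and tests were chosen with earlier results of these data known, replicate 2 included. Tested collagens were named with values and the others with ranges; from each other list up to 4 called members were named or, failing 2 calls, the 2 with the smallest p. The alternatives were other pseudocounts, filters, scalings, a length correction, a block, plain moderation and leaving out libraries. The fit of replicates 1 and 3 with the block was added after seeing the data.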

Additional observations from a re-analysis of the deposited data

Results flagged for a closer look

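The collagens below were flagged since limma called their BDE209 effect in replicate 2 different from that in replicates 1 and 3. Replicate 2 has 1 library per group, and these calls depend on the filter and on limma's options, as given below. Their number is set beside the share over all genes tested in the results above. On the log2(FPKM + 1) scale the effect in replicate 2 minus that in the others was 1.91 for COL3A1, 0.99 for COL5A2, 0.52 for COL23A1 and 0.48 for COL4A1. It was -0.40 for COL12A1, -0.36 for COL8A1, -0.21 for COL6A1 and -0.20 for COL6A2. For COL3A1 and COL5A2 both replicate 2 libraries were already low, at 0.93 to 2.19 FPKM.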

How the results depend on the processing

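The treatment fit over 6 libraries called 0 collagens, and 0 genes of the 4 lists, under each pseudocount, filter, scaling and length correction, with the replicate block, without limma's trend and robust options and without each single library. In replicates 1 and 3 alone it called 5 collagens and 4, 3, 2 and 1 genes of the synthesis, processing, receptor and degradation lists, where 6.81% of all genes were called. With the replicate block added there, a fit chosen after seeing the data, it called 10, and 8, 7, 4 and 7, where 28.0% of all genes were called. The block over 6 libraries changed no call. The count of 8 collagens whose effect differed in replicate 2 was 0 without a filter and 2 without trend and robust options; the cause was not tested.

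The median treatment difference of the basement membrane genes was -0.07 with no filter, which adds genes near 0. Leaving out 1 library moved the medians between -0.32 and 0.26 (all), -0.58 and 0.37 (fibrillar) and -0.21 and 0.27 (other). Each of the 6 libraries moved these medians when left out. Without DMSO replicate 2 or BDE209 replicate 2 the shift of that replicate stays in 1 group only. Without any other library, replicate 2 makes up unlike shares of the 2 groups. The part of this in the moves was not tested. COL16A1 turned to -0.01 under median of ratios scaling and to -0.02 with the length trend removed, also with the replicate block. COL4A5 turned to -0.00 and COL9A2 to -0.01 under quantile normalisation. With 1 library left out the sign also turned in these genes, whose differences ranged as follows: COL1A1 -0.59 to 0.46, COL1A2 -0.57 to 0.38, COL4A5 -0.00 to 0.13, COL5A1 -0.53 to 0.36, COL6A1 -0.35 to 0.27, COL6A2 -0.23 to 0.10, COL6A3 -0.44 to 0.36, COL7A1 -0.35 to 0.26, COL8A2 -0.18 to 0.62, COL9A2 -0.08 to 0.14, COL12A1 -0.25 to 0.55, COL13A1 -0.07 to 0.15, COL15A1 -0.66 to 0.87, COL16A1 -0.13 to 0.21, COL23A1 -0.30 to 0.50 and COL27A1 -0.09 to 0.02. COL3A1 (-2.34 to -0.42), COL5A2 (-1.65 to -0.08), COL4A1 (-0.83 to -0.32), COL4A2 (-0.47 to -0.30), COL18A1 (-0.32 to -0.09), COL5A3 (0.12 to 0.46) and COL8A1 (0.00 to 0.76) kept their sign under these and the other alternatives.

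The replicate 2 shift, given for all, fibrillar, basement membrane and other collagens, was -0.82, -1.39, 0.01 and -0.82 under median of ratios scaling, -1.11, -2.08, 0.02 and -1.11 under quantile normalisation, -1.43, -2.0, -0.52 and -1.43 with equal totals and -0.70, -1.17, 0.25 and -0.70 with the length trend removed. Equal totals moved the median of all genes to -0.52, against -0.10. For all, fibrillar and other collagens it was -0.14, -1.39 and -0.09 with no filter and -1.16, -1.57 and -1.03 at a minimum FPKM of 5. FPKM carry no depth, so counting error is unknown.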
